A study of Mus musculus with 24 samples.

Results

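Elf2 and Elk4 encode transcription factors of the ETS family, and both genes gave rise to circular RNAs in cardiac fibroblasts of the mouse heart. Every junction in the authors' table whose host gene is Elf2 or Elk4 was taken, which gave 4 circular RNAs of 2 host genes among 1717 circular RNAs of 1187 host genes. Elf2 hosted a circle of exons 2 to 4 and a circle of exons 2 and 3, and Elk4 hosted a circle of exons 3 to 6 and a circle of exons 3 to 5. Within the 2 genes no threshold on a value was used, but the pair of genes was chosen by its values in an earlier look at this table, normalized junction reads and their differences between TAC and sham included. The levels below are therefore a description, and the tests between groups do not count as independent of that choice.

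Male C57BL/6J mice had undergone transverse aortic constriction (TAC), in which a suture tied around the aortic arch narrows it and loads the left ventricle with pressure, or a sham operation that left the aorta untied. Mice were operated on at an age of 8 weeks and hearts were digested on a Langendorff apparatus 1, 4 or 8 weeks later. The groups were TAC at 1 week (4 libraries) and sham at 1 week (4 libraries), TAC at 4 weeks (4) and sham at 4 weeks (5), and TAC at 8 weeks (3) and sham at 8 weeks (4). The labels name no transgene and no drug, and they give no step that purified the digested cells by sorting. Total RNA depleted of ribosomal RNA was sequenced, and the table counts reads across back-splice junctions, where the end of a downstream exon is joined to the start of an upstream exon.

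ETS factors share a winged helix-turn-helix domain that binds DNA around a GGAA core. Elk4, also called SAP-1, is a ternary complex factor: together with serum response factor (SRF) it sits on serum response elements, and phosphorylation by MAP kinases turns on its C-terminal activation domain. In fibroblasts, ternary complex factors and myocardin-related factors bind SRF in competition, the first towards growth-related genes and the second towards contractile genes. Elf2, also called NERF, belongs to the ELF branch of the family, exists as isoforms from alternative starts and is known to bind RUNX1 and LMO2. A circular RNA has no free ends and can persist longer than the linear mRNA of its gene. Its level is therefore not a measure of the host's mRNA or protein, which were not analysed here.

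The 4 junctions are shown as 15 bases on each side of the join, since this sequence is what identifies a circle. Lower-case letters are the end of the last exon, and capitals are the start of the first exon, to which it is joined. They were read 5′ to 3′ on the transcript strand from GENCODE M21 transcripts of the mm10 build. Each gene's 2 circles have the same capitals and differ in the lower-case letters.
Elf2 exons 2 to 4: agaattcagaaacagTAGTTCCAGAGAACC
Elf2 exons 2 and 3: ggagaaaatcaagagTAGTTCCAGAGAACC
Elk4 exons 3 to 6: tctttttttaaaaagCCCATTGCTATGGAC
Elk4 exons 3 to 5: aatacgcttttccagCCCATTGCTATGGAC

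Both circles of a gene thus started at 1 shared acceptor edge and ended at different donor edges. Among the 192 hosts with exactly 2 circular RNAs in the table, 62 (32.3%) had 2 circles that shared their upstream edge and 51 (26.6%) had 2 that shared their downstream edge. No annotated linear transcript held any of the 4 junction sequences. The 20 bases at each Elf2 edge and at the Elk4 donor edges matched no other annotated gene. The 20 bases at the Elk4 acceptor edge are also in Gm29103, a processed transcript that overlaps the start of Elk4.

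The longer Elf2 circle spans chr3:51308050-51326035 on the minus strand of mm10 (ENSMUSG00000037174), a span of 17986 bases. It holds exons 2, 3 and 4 of transcript Elf2-212, of 88, 230 and 166 bases, and so 484 bases once spliced. Of these, 246 are 5′ untranslated and 238 are coding, with the annotated start codon and the first 13.4% of the 1782 bases of coding sequence. The ETS domain of Elf2 lies further along the protein and is not encoded by these exons. The coding bases are printed because they are the stretch of Elf2 that the most abundant ETS circle carries, with the start codon in capitals.
coding part of Elf2 exons 2 to 4: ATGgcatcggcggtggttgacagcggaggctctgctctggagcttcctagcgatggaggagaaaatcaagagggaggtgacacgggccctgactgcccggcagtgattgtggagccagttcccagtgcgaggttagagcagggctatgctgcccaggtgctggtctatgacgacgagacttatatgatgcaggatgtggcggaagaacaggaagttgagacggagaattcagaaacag

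The shorter Elf2 circle (chr3:51323222-51326035, minus strand) holds exons 2 and 3 alone, 318 bases once spliced, of which 72 are coding. Read from the start codon, these 72 bases give 24 codons, and the junction then places TAG, the first 3 capitals above, in frame. In the longer circle the reading frame runs through 79 codons up to the junction, crosses it once and meets a stop after 87 codons. These are properties of the annotated sequence, and translation was not measured.

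The longer Elk4 circle spans chr1:132014383-132023838 on the plus strand (ENSMUSG00000026436), or 9456 bases. Its upstream edge is the start of exon 3 of Elk4-201. Its downstream edge is the end of a longer form of exon 6, annotated only in Elk4-207, a transcript classed as subject to nonsense-mediated decay, and no single annotated transcript holds both edges. With the exons between them the circle is 1489 bases long and holds the whole Elk4 coding sequence of 1293 bases, the stop codon included, and 196 untranslated bases. The annotated reading frame of 430 codons therefore lies within the circle without crossing the junction.

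The shorter Elk4 circle (chr1:132014383-132019466, plus strand) holds exons 3, 4 and 5 of Elk4-201, of 216, 870 and 117 bases. It has 1194 coding bases, 92.3% of the coding sequence, with the start codon but without the stop codon. Its spliced length of 1203 bases is a multiple of 3, and the reading frame from the start codon meets no stop on the way round the circle.

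All 4 circles held the annotated start codon of their host, as did 263 of the 1649 circular RNAs (15.9%) for which a coding transcript matched both edges; the longer Elk4 circle was not among these. The 4 circles are not independent here, since the 2 of each gene share the exon or exons concerned. At 484 and 318 bases the Elf2 circles lie on either side of the median spliced length of 420 bases. The Elk4 circles are longer, and 95.2% of the circular RNAs with a known spliced length were shorter than 1203 bases. The intron upstream of the Elf2 circles is 14378 bases long, against a median of 11026 bases over all circular RNAs. The intron downstream of the longer Elf2 circle is 41183 bases in Elf2-212, longer than the downstream intron of 90.3% of circular RNAs, but 8164 bases in the annotated transcript with the shortest one, below the median of 9861 bases. Upstream of both Elk4 circles lies a short intron of 1148 bases in Elk4-201, and 7.07% of circular RNAs had a shorter one; in Elk4-202, which lacks exon 2, this intron is 6442 bases. Of the 13 annotated Elf2 transcripts, 5 protein-coding ones start within the long downstream intron of Elf2-212, 30475 to 30682 bases beyond the end of the longer circle. Those 5 hold none of the circularized exons.

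**Figure D1:**
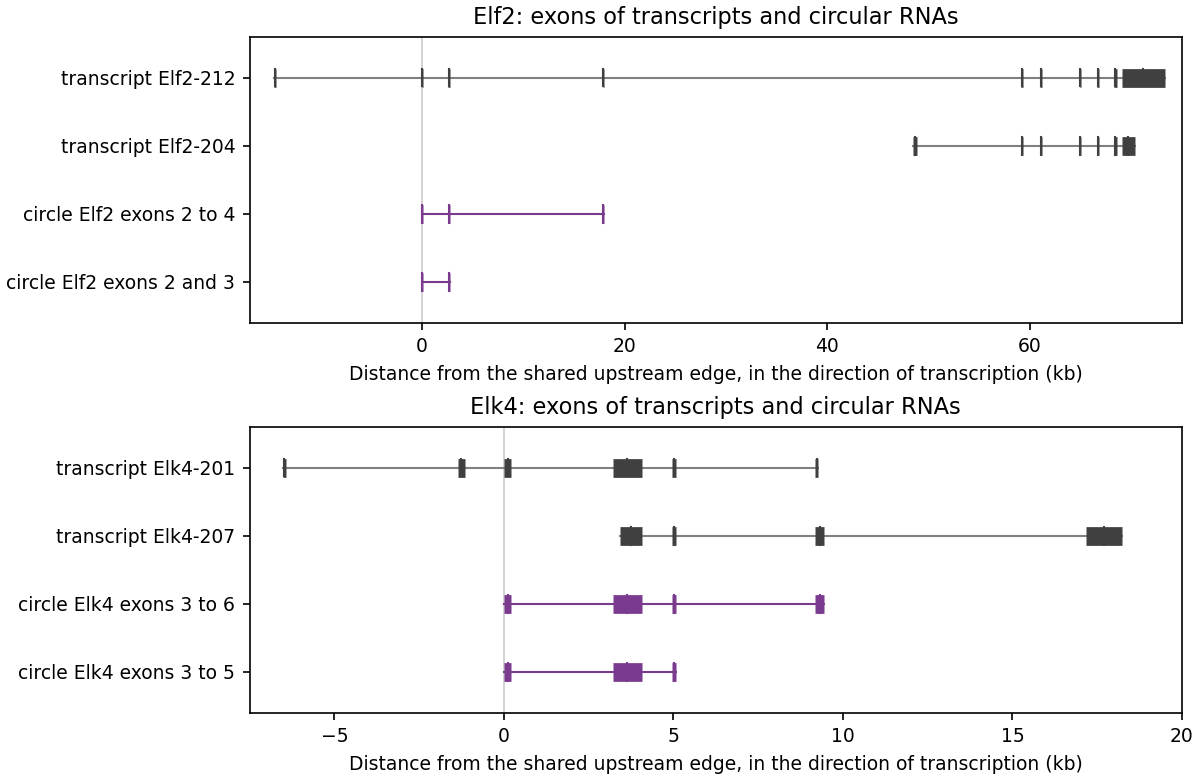
Map of Elf2 (top) and Elk4 (bottom), drawn along the direction of transcription with the distance in kb from the upstream edge that a gene's 2 circles share at 0. Dark boxes are exons of annotated transcripts and purple boxes are the exons taken to be in each circle, with a 1-point line marking exons too short to show at scale. The Elf2 circles lie before the 48.5 kb point at which transcript Elf2-204 starts, and the longer Elk4 circle ends in the longer exon that Elk4-207 has.

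The circle of Elf2 exons 2 to 4 was among the most abundant circular RNAs of these cells. It averaged 28.8 ± 6.46 normalized junction reads (SD, n = 24), in the authors' scaling by library, against a median of 1.80 over all circular RNAs, and ranked 10 of 1717. Within single libraries its rank lay between 4 and 32. It took 688 reads, 18 to 45 in each library, which is 0.495% of all junction reads (95% exact binomial interval 0.459% to 0.534%). Its coefficient of variation within groups was 22.2%, beside 18.7% from counting that many reads alone.

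The other 3 circles were scarcer. Elk4 exons 3 to 6 averaged 3.54 ± 1.90 normalized reads (SD, n = 24), ranked 397 and had at least 1 read in each of the 24 libraries, 88 in all. Elf2 exons 2 and 3 averaged 1.72 ± 1.58 normalized reads (SD, n = 24), ranked 920 and was read in 17 libraries, with 39 reads in all. Elk4 exons 3 to 5 averaged 1.57 ± 1.47 normalized reads (SD, n = 24), ranked 1007 and was read in 16 libraries, also with 39 reads. A library without a read still allows up to 3 reads, or 2.18 to 3.74 normalized reads in the 7 libraries at 0 for Elf2 exons 2 and 3 and 2.57 to 4.51 in the 8 libraries at 0 for Elk4 exons 3 to 5. Intervals and limits of this kind cover counting error only.

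**Figure D2:**
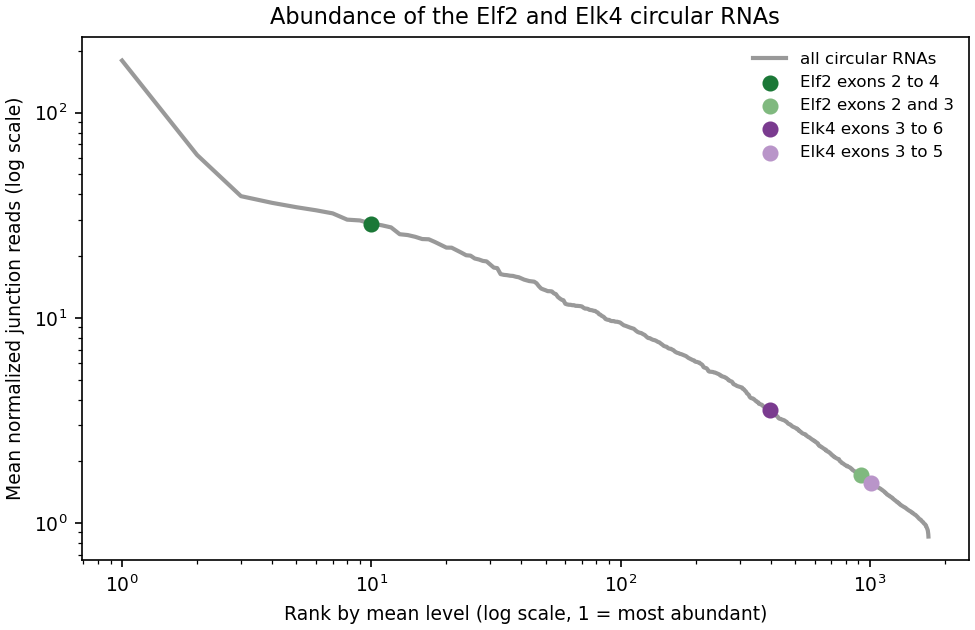
Mean normalized junction reads over the 24 libraries (log scale) against the rank of each circular RNA by that mean (log scale), with the grey line for all 1717 circular RNAs and coloured points for the 4 circles of Elf2 and Elk4. Elf2 exons 2 to 4 lies at rank 10 and the other 3 circles at ranks 397, 920 and 1007.

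Within each gene the longer circle had the larger share of reads. Elf2 exons 2 to 4 held 337 of 355 Elf2 junction reads in TAC libraries, or 94.9% (95% exact binomial interval 92.1% to 96.97%), and 351 of 372 in sham libraries, or 94.4% (91.5% to 96.5%). It was the major Elf2 circle in each of the 24 libraries, with a share of 79.2% or more. Elk4 exons 3 to 6 held 58 of 84 Elk4 junction reads in TAC libraries, or 69.0% (58.0% to 78.7%), and 30 of 43 in sham libraries, or 69.8% (53.9% to 82.8%). The longer Elk4 circle had the majority of the gene's reads in 21 of 24 libraries, with a share as low as 25.0% in a TAC library at 1 week and 28.6% in a sham library at 8 weeks, and it held 9 of 16 reads in sham at 8 weeks (56.2%, 29.9% to 80.2%). Over all times, the proportions of the 2 isoforms of a gene lay within each other's counting intervals in TAC and sham for both genes.

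The level of Elf2 exons 2 to 4 overlapped between TAC and sham at each time. At 1 week it was 35.4, 34.5, 19.0 and 21.4 normalized reads in TAC libraries and 28.9, 24.9, 33.1 and 31.0 in sham libraries. Of the 4 TAC libraries, 2 lay above all 4 sham libraries and 2 lay below them. At 4 weeks it was 30.4, 28.6, 21.1 and 23.8 in TAC libraries and 42.0, 31.4, 31.2, 23.4 and 33.2 in sham libraries, so that 4 of 4 TAC libraries lay below the sham mean and 1 of them below the lowest sham library. At 8 weeks it was 39.5, 31.7 and 27.4 in TAC libraries and 19.2, 25.3, 35.6 and 19.1 in sham libraries, and 3 of 3 TAC libraries lay above the sham mean, within a range that 1 sham library shared.

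No difference of Elf2 exons 2 to 4 between TAC and sham passed the test. By limma over all circular RNAs, its log2 fold change of TAC over sham was -0.14 ± 0.32 (SE) at 1 week (adjusted p = 0.916), -0.30 ± 0.30 at 4 weeks (adjusted p = 0.885) and 0.43 ± 0.34 at 8 weeks (adjusted p = 0.887). The opposite leanings at 4 and 8 weeks were set against each other directly, and the TAC effect at 8 weeks minus that at 4 weeks was 0.73 ± 0.45 on the log2 scale (limma adjusted p = 0.780). Averaged over the times, the fold of TAC over sham was 0.998 with a 95% interval of 0.777 to 1.28 (limma adjusted p = 0.994). A missed threshold does not show that the groups were alike, and that interval is what these libraries allow.

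The order of the 6 groups for Elf2 exons 2 to 4 ran from TAC at 8 weeks (32.9 ± 6.12 normalized reads, SD, n = 3) and sham at 4 weeks (32.3 ± 6.64, n = 5) through sham at 1 week (29.5 ± 3.47, n = 4), TAC at 1 week (27.6 ± 8.58, n = 4) and TAC at 4 weeks (26.0 ± 4.31, n = 4) to sham at 8 weeks (24.8 ± 7.78, n = 4). The ranges of neighbours in this order overlapped in each case.

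Elf2 exons 2 and 3, the minor circle of this gene, was at its lowest in TAC at 4 weeks. There it had 2 reads in 4 libraries, a mean of 0.372 ± 0.437 normalized reads (SD, n = 4), against 9 reads in the 5 sham libraries of that time, a mean of 1.96 ± 2.01 (n = 5). These TAC libraries were the deepest of the series, with 6846 to 9146 junction reads, against 3618 to 6524 in sham at 4 weeks. At 1 week the circle averaged 2.98 ± 1.44 in TAC (n = 4) and 2.04 ± 1.74 in sham (n = 4), and at 8 weeks 1.65 ± 0.427 in TAC (n = 3) and 1.23 ± 1.82 in sham (n = 4). Its log2 fold changes of TAC over sham were 0.76 ± 0.81 at 1 week, -1.06 ± 0.76 at 4 weeks and 0.89 ± 0.87 at 8 weeks, with limma adjusted p of 0.782, 0.816 and 0.935, and the ranges overlapped at each time. The average over the times was 0.20 ± 0.47 (limma adjusted p = 0.973). Single libraries and the pseudocount set these values: at 1 week the log2 fold change was 0.11 without sham replicate 2 and 1.31 with a pseudocount of 0.1, and at 8 weeks 1.54 without sham replicate 3 and 1.89 with a pseudocount of 0.1.

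**Figure D3:**
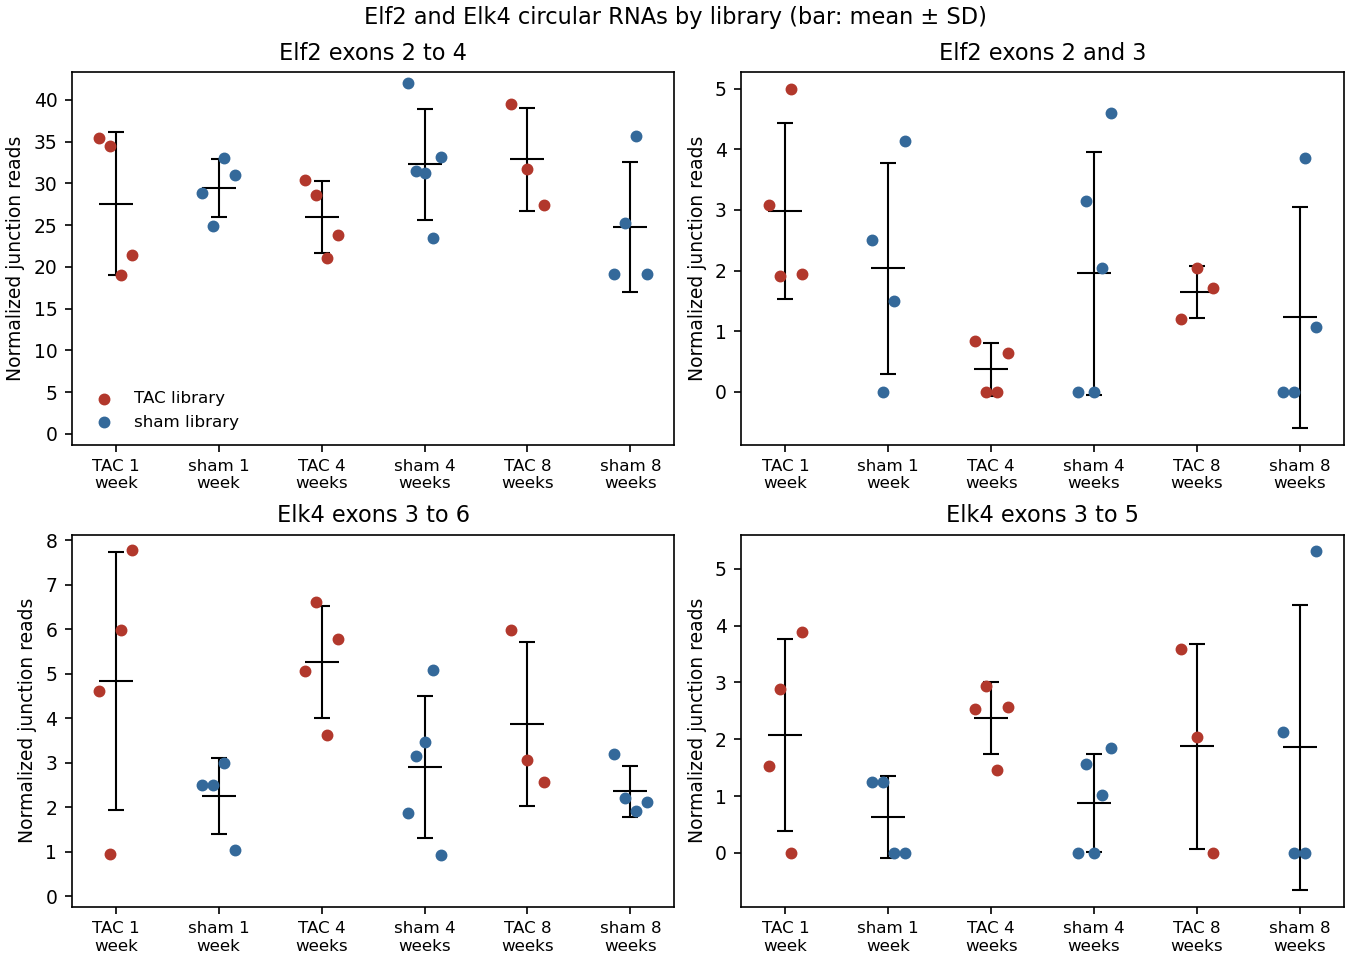
Normalized junction reads of each circle in each library, by group, with TAC in red left of sham in blue at 1, 4 and 8 weeks, and black bars for the mean ± SD of 3 to 5 libraries; SD bars that pass below 0 reflect groups with libraries at 0. The groups overlap for Elf2 exons 2 to 4 at each time, and for Elk4 exons 3 to 6 the TAC mean is above the sham mean at each time.

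Both Elk4 circles had higher means in TAC than in sham at each time, though neither difference passed the test. Elk4 exons 3 to 6 averaged 4.73 ± 2.00 normalized reads in TAC (SD, n = 11) and 2.54 ± 1.09 in sham (SD, n = 13), and 10 of 11 TAC libraries lay above the sham mean of their time. At 1 week it was 4.61, 0.959, 5.99 and 7.78 in TAC libraries and 2.51, 2.49, 3.01 and 1.03 in sham libraries, so that 3 TAC libraries lay above all 4 sham libraries and 1 lay below them. At 4 weeks it was 5.07, 6.60, 3.63 and 5.78 in TAC libraries and 1.87, 3.14, 3.47, 5.09 and 0.921 in sham libraries, where a single sham library reached into the TAC range. At 8 weeks it was 5.99, 3.06 and 2.57 in TAC libraries and 3.19, 2.20, 1.92 and 2.12 in sham libraries, again with 1 sham library inside the TAC range.

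The log2 fold changes of Elk4 exons 3 to 6, TAC over sham, were 0.76 ± 0.66 at 1 week, 0.88 ± 0.62 at 4 weeks and 0.55 ± 0.71 at 8 weeks, with limma adjusted p of 0.702, 0.816 and 0.942. Averaged over the times the log2 fold change was 0.73 ± 0.38 (95% interval -0.02 to 1.49, unadjusted p = 0.0567, limma adjusted p = 0.501), a fold of 1.66 with an interval of 0.986 to 2.80. At 1 week leaving out TAC replicate 2 gave 1.30, leaving out TAC replicate 4 gave 0.47 and leaving out sham replicate 4 gave 0.50, and at 8 weeks leaving out TAC replicate 1 gave 0.23. These values rest on few molecules: 58 reads in 11 TAC libraries and 30 reads in 13 sham libraries. At 4 weeks the TAC libraries were also deeper, with 6846 to 9146 junction reads against 3618 to 6524 in sham. The part of depth in the Elk4 values was not tested. Adding 0.5 before taking logs draws the estimated folds of such scarce circles towards no change, whether or not a true difference exists.

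Elk4 exons 3 to 5 averaged 2.08 ± 1.69 normalized reads in TAC and 0.626 ± 0.723 in sham at 1 week (SD, n = 4 each), and 2.37 ± 0.640 in TAC (n = 4) and 0.886 ± 0.862 in sham (n = 5) at 4 weeks. At 8 weeks the means were 1.88 ± 1.80 in TAC (n = 3) and 1.86 ± 2.51 in sham (n = 4), where 1 sham library at 5.30 was the highest of all 24 and 2 sham libraries had no read. TAC libraries lay above the sham mean of their time in 9 of 11 cases, which were the 9 TAC libraries with any read of this circle. It was read in 7 of the 13 sham libraries. The averaged log2 fold change was 0.90 ± 0.47 (95% interval -0.03 to 1.83, unadjusted p = 0.0581, limma adjusted p = 0.504), and 1.52 with a pseudocount of 0.1. At 8 weeks its value of 0.31 ± 0.88 lay between -0.31 and 1.21 when 1 library was left out. The leaning shared by the 2 Elk4 circles is not 2 independent observations, since both come from the same libraries and the same gene. In those libraries circles of the cardiomyocyte hosts Ttn and Ryr2 differed in the other direction: a Ttn circle of exons 85 to 118 fell in TAC by 1.34 ± 0.21 on the log2 scale, averaged over the times (limma adjusted p = 6.42e-07). Its part in the Elk4 values was not tested.

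**Figure D4:**
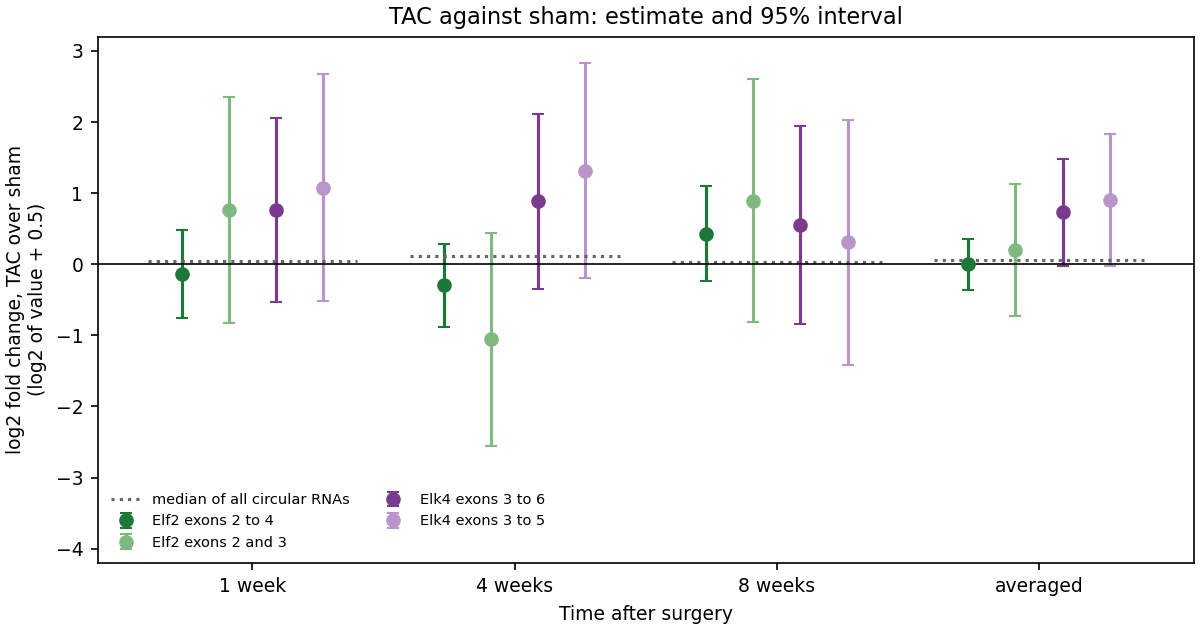
Log2 fold change of TAC over sham with its 95% interval for the 4 circles at 1, 4 and 8 weeks and averaged over the times, on the log2(value + 0.5) scale, with a dotted line for the median of all 1717 circular RNAs and a solid line at 0. Each of the 16 intervals includes 0; the averaged intervals of the Elk4 circles reach -0.02 and -0.03 at their lower ends.

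In the 16 tests of TAC against sham, none of the 4 circles was called at 1 week, where 1.46% of all circular RNAs were called at a limma adjusted p of 0.05, at 4 weeks (0.116% called), at 8 weeks (0% called) or on the average (0.641% called). At these background rates a count of 0 among 4 says little about the 4 circles. None of the 16 had an unadjusted limma p under 0.05, and their smallest limma adjusted p was 0.501. Of all 1717 circular RNAs, 201 had an unadjusted limma p under 0.05 at 1 week. The number was 137 at 4 weeks, 104 at 8 weeks and 170 on the average. Over all circular RNAs the median log2 fold change was 0.04 at 1 week, 0.12 at 4 weeks, 0.03 at 8 weeks and 0.06 on the average, and 55.9% of the averaged values were above 0. The share above 0 was 51.9% at 1 week, 56.4% at 4 weeks and 51.4% at 8 weeks. Of the 16 values of the 4 circles, 12 were above 0. These 16 are not separate observations, since each circle's average is made from its per-time values and all circles come from the same libraries.

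The TAC effect was also compared between times. None of the 12 differences passed, and 0% of all circular RNAs passed in each of these 3 comparisons; the smallest limma adjusted p among the 12 was 0.700. Between times within TAC, 0 of 12 tests were called, against 0% of all circular RNAs, and 1 had an unadjusted p under 0.05. That was Elf2 exons 2 and 3, whose log2 fold change of TAC at 4 weeks over TAC at 1 week was -2.06 ± 0.81 (unadjusted p = 0.0109, limma adjusted p = 0.718). In that comparison 88 of all 1717 circular RNAs had an unadjusted limma p under 0.05. Within TAC the number was 129 for 8 weeks over 1 week and 71 for 8 weeks over 4 weeks. Between times within sham, 0 of 12 tests were called and the smallest limma adjusted p was 0.843, where 0.116% of all circular RNAs were called at 8 weeks against 1 week and 0% in the other 2 comparisons. For Elf2 exons 2 to 4 the values within TAC were -0.05 ± 0.32 at 4 weeks over 1 week and 0.33 ± 0.34 at 8 weeks over 4 weeks, and within sham 0.11 ± 0.30 and -0.40 ± 0.30. The abundant Elf2 circle thus showed no called difference with time after either operation.

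Another 5 genes of the ETS family hosted 7 further circular RNAs, and none was called in any of the 4 comparisons of TAC with sham. Together the 11 ETS circles took 1249 reads, 0.899% of all junction reads, of which Elf2 exons 2 to 4 alone held 55.1%. The next most abundant was Ets1 exons 4 to 6, with 3.55 ± 1.26 normalized reads in TAC (SD, n = 11) and 6.01 ± 3.47 in sham (SD, n = 13) and an averaged log2 fold change of -0.38 ± 0.36 (limma adjusted p = 0.773). Fli1 exons 2 to 5 followed with 4.36 ± 1.92 in TAC (n = 11) and 4.62 ± 2.23 in sham (n = 13). Ets1 and Fli1 are ETS factors best known from endothelial and blood cells.

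Elk3, also called Net, is another ternary complex factor, and its circle is exon 3 alone, 801 bases. It averaged 1.99 ± 1.01 normalized reads in TAC (SD, n = 11) and 1.06 ± 0.962 in sham (SD, n = 13), with a log2 fold change of 0.89 ± 0.47 averaged over the times (limma adjusted p = 0.501). The remaining ETS circles came from Elf1, with an averaged log2 fold change of -0.57 ± 0.47, Etv6 with 0.43 ± 0.47, Fli1 exons 2 to 4 with 0.19 ± 0.47 and Ets1 exons 2 to 5 with -0.14 ± 0.47. Of the 7 circles, 3 had an averaged value above 0 and 4 below, with a median of -0.06.

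**Figure D5:**
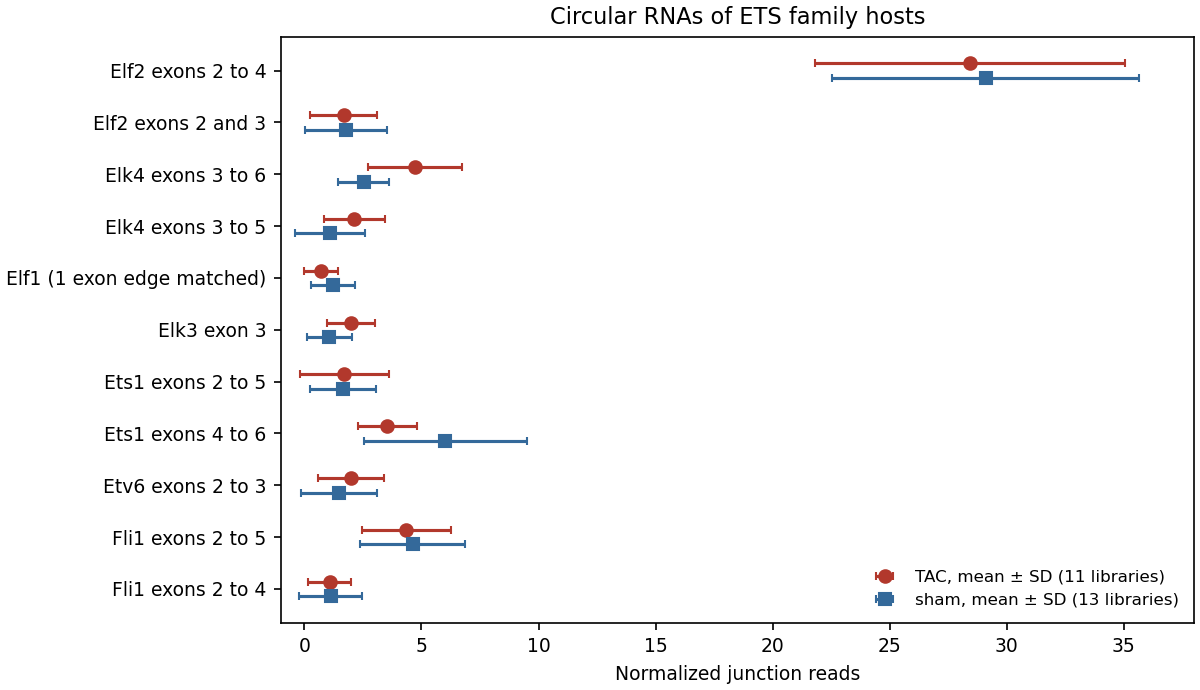
Mean ± SD of normalized junction reads for the 11 circular RNAs of ETS family hosts, with TAC (11 libraries, red circles) drawn above sham (13 libraries, blue squares) in each row. Elf2 exons 2 to 4 stands far to the right of the other 10 circles, with overlapping bars in TAC and sham.

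The partners of these factors were looked at through lists of host genes. The list for SRF and its partners had 7 gene symbols, some of them older names of the same genes. Of these, Myocd and Mrtfa, both SRF coactivators, hosted 1 circle each, and neither was called. The Myocd circle had log2 fold changes of -2.06 at 1 week (limma adjusted p = 0.0720), -0.78 at 4 weeks and 1.35 at 8 weeks, and -0.49 on the average (limma adjusted p = 0.704). The partner genes are named after their values were seen. Of 47 genes for Ras and MAP kinase signalling, 14 hosted 20 circles, and 0 were called in any comparison. The list mixes kinases of the route to Elk4 with regulators that restrain it, so the signs of its circles give no direction of that route. At 1 week 15 of the 20 were above 0 with a median log2 fold change of 0.35, against 51.9% and 0.04 over all circular RNAs. At 4 weeks 14 were above 0 (median 0.25), against 56.4% and 0.12. At 8 weeks 11 were above 0 (median 0.01), against 51.4% and 0.03, and on the average 11 (median 0.20), against 55.9% and 0.06. Of 5 genes for the RUNX and LIM partners of Elf2, Runx1 and its partner Cbfb hosted 3 circles, with a median averaged log2 fold change of 0.09, and none was called.

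The circular RNAs whose levels across the 24 libraries were most like those of the 2 major circles are given as a description. Likeness is Pearson's r of log2(normalized reads + 0.5), among circular RNAs with a mean of at least 5 reads before scaling. All points share the same libraries and depths. For Elf2 exons 2 to 4, among 271 candidates with a median r of 0.05, the highest were circles of Rev1 (r = 0.61), Ptpn14 (0.53), Ablim3 (0.52), Cdk8 (0.51) and Atxn7 (0.50). For Elk4 exons 3 to 6, among 272 candidates with a median r of -0.01, they were circles of Cnot2 (r = 0.66), Aff3 (0.47), Kat6b (0.46), Bbs9 (0.44) and Gigyf2 (0.41). Rev1 is a translesion DNA polymerase and Cnot2 a subunit of the CCR4-NOT deadenylase. With the group means removed, r was 0.45 to 0.69 for the 5 circles like Elf2. For those like Elk4 it was lower, at 0.49 for Cnot2, 0.29 for Aff3, 0.22 for Kat6b, 0.30 for Bbs9 and 0.21 for Gigyf2. At 1 to 9 reads per library the Elk4 correlations carry much counting noise.

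Depth over the whole table was 3595 to 9146 junction reads per library, and the median circular RNA had 2 reads in a library. The marker lists could be read only through circular RNAs. Of 12 fibroblast marker genes only Dcn hosted a circle, at 0 to 3.77 normalized reads, so that the labelled cell type could be neither borne out nor denied by its markers here. Circles of 5 cardiomyocyte hosts (9 circles of 15 listed genes) summed to 23.0 to 29.0 normalized reads in TAC and 33.1 to 121.7 in sham at 1 week, to 15.98 to 38.5 in TAC and 39.6 to 108.5 in sham at 4 weeks, and to 41.1 to 44.95 in TAC and 51.0 to 112.8 in sham at 8 weeks. Of these 9 circles, 2 were called lower in TAC by limma at 1 week (Ryr2 and Ttn, smallest adjusted p = 0.000528), 2 at 4 weeks (both Ttn, 0.0232), 0 at 8 weeks (0.672) and 2 on the average (both Ttn), where 8 of 9 had a log2 fold change below 0. Circles of 6 leukocyte hosts (21 circles of 12 listed genes) summed to 45.7 to 143.0 in TAC and 69.1 to 178.3 in sham over the times. Circles of 3 endothelial hosts (5 circles of 11 listed genes) summed to 8.98 to 18.6 in TAC and 5.02 to 16.8 in sham, and no gene of the mural list hosted a circle. The part of other cell types in the Elf2 and Elk4 values was not tested, and in such bulk samples fewer cells of a type and less RNA per cell cannot be told apart.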

How the data were processed

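Total RNA of Langendorff-isolated cardiac fibroblasts was depleted of ribosomal RNA with Ribo-Zero Gold and sequenced as stranded paired-end libraries, per the labels' protocols. FastQC, Trimmomatic, STAR and mm10 are named in the submitters' processing notes; versions, the settings of the circular RNA caller, filters and the method of normalization are not given in the sources. What the authors deposited is a signal: junction reads scaled by library, plus an offset of 0.01. After removing the offset, 100% of values were whole multiples of their library's step, within 0.001 of a read. A single read corresponded to 0.642 to 1.57 normalized reads. Every row had at least 2 reads in at least 3 libraries.

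Hosts and exon numbers came from GENCODE M21 on the same build, by exon edges on the junction's strand; 1666 of 1717 junctions matched at both edges. Sequences are from GENCODE M21 transcripts. Exons inside a circle are taken from the annotation and were not observed. limma 3.58.1 (R 4.3.3) with an intensity trend was run on log2(normalized reads + 0.5) for all 24 libraries in 6 groups, with Benjamini-Hochberg adjustment over 1717 circular RNAs per comparison and calls at an adjusted p of 0.05; the script was tested on simulated data. Circular RNAs were named by membership in Elf2, Elk4 or the ETS family, by a call within the partner lists, or as the 5 most alike by correlation; no circular RNA of the partner lists was called, and Myocd, Mrtfa, Runx1, Cbfb, and the called cardiomyocyte hosts were named outside this rule, after their values were seen. Members, lists and rules were chosen with earlier results of these data known. Alternatives were other pseudocounts, scalings, filters and limma-voom, fewer groups in the fit, a replicate block and leaving out each library. Whether libraries of a group stem from different mice is not stated in the labels; p-values reflect only the spread among libraries, part of which may be technical. Each of the 37 pairs within groups differed beyond counting noise (largest chi-square p 0.0109).

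Replicate numbers are shared between TAC and sham. At 1 week the residuals of same-numbered libraries over 272 circular RNAs correlated at 0.26, 0.15, 0.23 and 0.16, all above 0.1. There the numbers were taken as a possible pairing, from the data and not from a label. No correlation of differently numbered libraries was set beside them. At 4 and 8 weeks not all pairs passed 0.1, and sham numbers there do not follow those in the submitters' library names. The main fit has no term for pairing, so its SEs, intervals and adjusted p treat the libraries as unpaired. With the replicate block, Elf2 exons 2 to 4 at 1 week was -0.14 ± 0.28 (SE, limma adjusted p = 0.902), against an SE of 0.32 without it.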

Additional observations from a re-analysis of the deposited data

How the results depend on the processing

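No alternative called any of the 4 circles: the smallest limma or limma-voom adjusted p was 0.263 over 336 alternative values of TAC against sham, 0.552 over 303 of the differences between times in the TAC effect and 0.266 over 390 between times. Among settings other than leaving out a library, 5 values turned round in sign. The average of Elf2 exons 2 to 4 became 0.045 with TMM scaling and 0.00885 with scaling by total junction reads, its value for TAC at 4 weeks over 1 week became 0.10 with TMM scaling, and that for sham at 4 weeks over 1 week became -0.0109 with median-ratio factors. The TAC effect at 4 weeks minus 1 week of Elk4 exons 3 to 6 became -0.16 with the replicate block. At 4 weeks sham replicate 5 has no TAC library of its number, so in the block it carries no weight in that difference. The cause of the other turns in sign was not tested. For TAC against sham, 82 alternative values moved by over 1.5 times, 28 of them for the average of Elf2 exons 2 to 4, which is near 0. For Elf2 exons 2 and 3 at 4 weeks the value was -0.65 with the replicate block and also without sham replicate 5. For Elk4 exons 3 to 5 a pseudocount of 0.1 gave 1.68 at 1 week and 2.22 at 4 weeks. Both Elk4 averages stayed above 0 under all alternatives run that gave them a value.

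Leaving out 1 library at a time turned some small differences round. For TAC against sham, the log2 fold change ranged from -0.28 to 0.018 for Elf2 exons 2 to 4 at 1 week and from -0.049 to 0.060 on the average, from -0.016 to 0.41 for Elf2 exons 2 and 3 on the average, and from -0.31 to 1.21 for Elk4 exons 3 to 5 at 8 weeks. For the TAC effect at 8 weeks minus 1 week it ranged from -0.29 to 0.78 for Elf2 exons 2 and 3, from -0.75 to 0.088 for Elk4 exons 3 to 6 and from -1.42 to 0.13 for Elk4 exons 3 to 5. At 4 weeks minus 1 week it ranged from -0.42 to 0.42 for Elk4 exons 3 to 6 and from -0.42 to 0.63 for Elk4 exons 3 to 5. Within TAC, 4 weeks over 1 week ranged from -0.20 to 0.089 for Elf2 exons 2 to 4, from -0.20 to 0.64 for Elk4 exons 3 to 6 and from -0.15 to 0.90 for Elk4 exons 3 to 5. Within TAC, 8 weeks over 1 week ranged from -0.65 to 0.18 for Elk4 exons 3 to 6 and from -0.85 to 0.71 for Elk4 exons 3 to 5, and 8 weeks over 4 weeks from -1.32 to 0.20 for Elk4 exons 3 to 5. Within sham, 4 weeks over 1 week ranged from -0.89 to 0.19 for Elf2 exons 2 and 3, from -0.043 to 0.50 for Elk4 exons 3 to 6 and from -0.030 to 0.57 for Elk4 exons 3 to 5. Within sham, 8 weeks over 1 week ranged from -0.16 to 0.23 for Elk4 exons 3 to 6 and from -0.11 to 1.07 for Elk4 exons 3 to 5, and 8 weeks over 4 weeks from -0.40 to 0.10 and from -0.38 to 0.80 for these circles.

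The number of circular RNAs called over the whole table moved more. At 1 week it was 25, and 14 with limma-voom and 4 with the compared groups alone. It ranged from 6 to 32 with 1 library left out, and was 6 without sham replicate 2 and 12, 8 and 9 without TAC replicates 2, 3 and 4. At 4 weeks it was 2, and 0 with a pseudocount of 0.1, 6 with a pseudocount of 1, 6 with TMM scaling, 7 with limma-voom, 14 with the compared groups alone and 4 with the replicate block. It ranged from 0 to 4 with 1 library left out, and was 0 without sham replicate 1 or 4 or TAC replicate 3, 1 without TAC replicate 2 and 4 without sham replicate 2 or 5. At 8 weeks it was 0 throughout, with 104 circular RNAs at an unadjusted limma p under 0.05. On the average it was 11, and 5 with a pseudocount of 0.1 and 20 with limma-voom. It ranged from 4 to 17 with 1 library left out, and was 17 without sham replicate 1 of 1 week and 4 without TAC replicate 1 of 8 weeks.

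With the replicate number as a block no call of the 4 circles changed, and the block moved the number called at 1 week to 30. At 4 weeks the same-numbered residuals correlated at 0.01, 0.08, 0.13 and -0.19 and at 8 weeks at 0.21, 0.17 and -0.02. The replicate numbers of sham at these times do not follow the numbers in the submitters' library names. Neither these correlations nor the block there can therefore show whether TAC and sham libraries were paired at these times. The block sits within a time, so comparisons of one time with another within TAC or within sham could not be blocked, whereas TAC effects and their differences could. The count-based tests planned with edgeR and DESeq2 were not run, since such tests were kept to tables deposited as counts. Whole reads recovered from the values went into limma-voom. They also went into the TMM, total junction read and median-ratio scalings, which were tested by limma on the log2 scale. A mean of at least 5 reads left Elf2 exons 2 to 4 alone of the 4 circles. Depth limits the other 3 circles, which had 0 to 9 reads per library, and the intervals of both Elk4 averages included 0.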
